A study of Mus musculus with 32 samples.

Results

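The genes described here are 8 that, when mutated in people, cause an inherited disease of the small vessels of the brain other than CADASIL: Htra1, Trex1, Foxc1, Ctsa, Gla, Cst3, App and Itm2b. They were chosen by name, and each was found by its Ensembl identifier among the 55357 genes of the read count table. All 8 were listed, and 7 had counts. RNA was sequenced from the dissected brain arteries of 32 mice in 4 groups of 8, each mouse giving its own library. At 3 months of age, mice without functional Notch3 (Notch3-/-) were set against Notch3+/+ controls. At 12 months, TgNotch3R169C mice, a model of CADASIL, were set against their WT (non-Tg) littermates. TgNotch3R169C mice carry an artificial chromosome with rat Notch3 that holds a CADASIL mutation, in addition to normal mouse Notch3, so that the transgene adds copies of the gene as well as the mutation. The Notch3-/- and TgNotch3R169C lines had been backcrossed to C57BL/6, and no mouse was treated. Total counts per library ranged from 20289487 to 54481934. In the check of the labels, Notch3 fell in Notch3-/- mice (log2 fold change −2.37, adjusted p = 1.39e-10) and rose in TgNotch3R169C mice (log2 fold change 1.31, adjusted p = 1.75e-05; edgeR quasi-likelihood test).

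The members fall into 4 kinds by the role of the protein. HTRA1 is a secreted serine protease of the vessel wall, and its loss causes the arteriopathy CARASIL. TREX1 is an exonuclease that clears DNA from the cytosol, and its truncation causes a retinal and cerebral vasculopathy, while FOXC1 is a forkhead transcription factor of mesenchymal and mural cell development. CTSA and GLA act in the lysosome: cathepsin A protects other glycoprotein-degrading enzymes, and α-galactosidase A, encoded on the X chromosome, breaks down glycolipids and is missing in Fabry disease. CST3, APP and ITM2B are the precursors of proteins that are laid down as amyloid in brain vessels in hereditary angiopathies. CADASIL itself is caused by mutations of NOTCH3, the receptor of arterial smooth muscle cells and pericytes, and the comparisons here ask whether the other disease genes moved in arteries that lack Notch3 or carry the mutant transgene.

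The tissue was not arterial wall alone. The 8 smooth muscle, 6 pericyte and 8 endothelial markers were above 0 in every library, but so were the 8 neuron and 7 astrocyte markers. The 8 choroid plexus epithelium markers summed to 1213 to 3190 CPM (counts per 1000000 reads) in 7 libraries and to 218 to 354 CPM in the other 25. These 7 libraries were replicate 8 of the Notch3-/- group, replicates 5 and 8 of the TgNotch3R169C group, and replicates 2, 4, 5 and 6 of the WT group, and none was from a Notch3+/+ mouse. The 5 pituitary markers summed to 8928 CPM in 1 Notch3+/+ library and to at most 782 CPM elsewhere. The summed smooth muscle markers had medians of 2595 CPM in Notch3+/+, 1596 CPM in Notch3-/-, 1460 CPM in WT and 1298 CPM in TgNotch3R169C mice. In bulk tissue, fewer cells of a type and less RNA per cell cannot be told apart. Xist, the transcript of the inactive X chromosome, was at 1440 to 1832 CPM in 16 libraries and at 0.570 to 2.40 CPM in the other 16, with 4 of each in every group; the labels do not give the sex.

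By median CPM, 6 of the 7 members with counts ranked above at least 96.2% of the 18555 genes of the fit of all groups, and Gla above 49.0%. Per exon length, as RPKM (the CPM divided by the exon length in kilobases), the median over the 32 libraries was 1000 for Cst3, 563 for Itm2b, 112 for App, 72.9 for Htra1, 60.0 for Ctsa, 44.7 for Foxc1 and 4.78 for Gla. The ranges of Htra1 (50.6 to 91.0 RPKM), Ctsa (52.2 to 69.4 RPKM) and Foxc1 (32.4 to 52.5 RPKM) overlapped, whereas the ranges of Cst3 (836 to 1174 RPKM), Itm2b (499 to 608 RPKM), App (101 to 137 RPKM) and Gla (3.98 to 6.01 RPKM) met no other. So the amyloid precursors Cst3, Itm2b and App held the top of this order in every library. The levels were also steady between mice: the highest library exceeded the lowest by 1.22 times for Itm2b, 1.33 times for Ctsa, 1.35 times for App, 1.40 times for Cst3, 1.51 times for Gla, 1.62 times for Foxc1 and 1.80 times for Htra1. The SD between mice of a group was 0.074 (Itm2b) to 0.19 (Foxc1) on the log2 scale, and the median over those 18555 genes was 0.20. That median covers genes of every level, and genes as abundant as the members were not compared on their own.

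**Figure D1:**
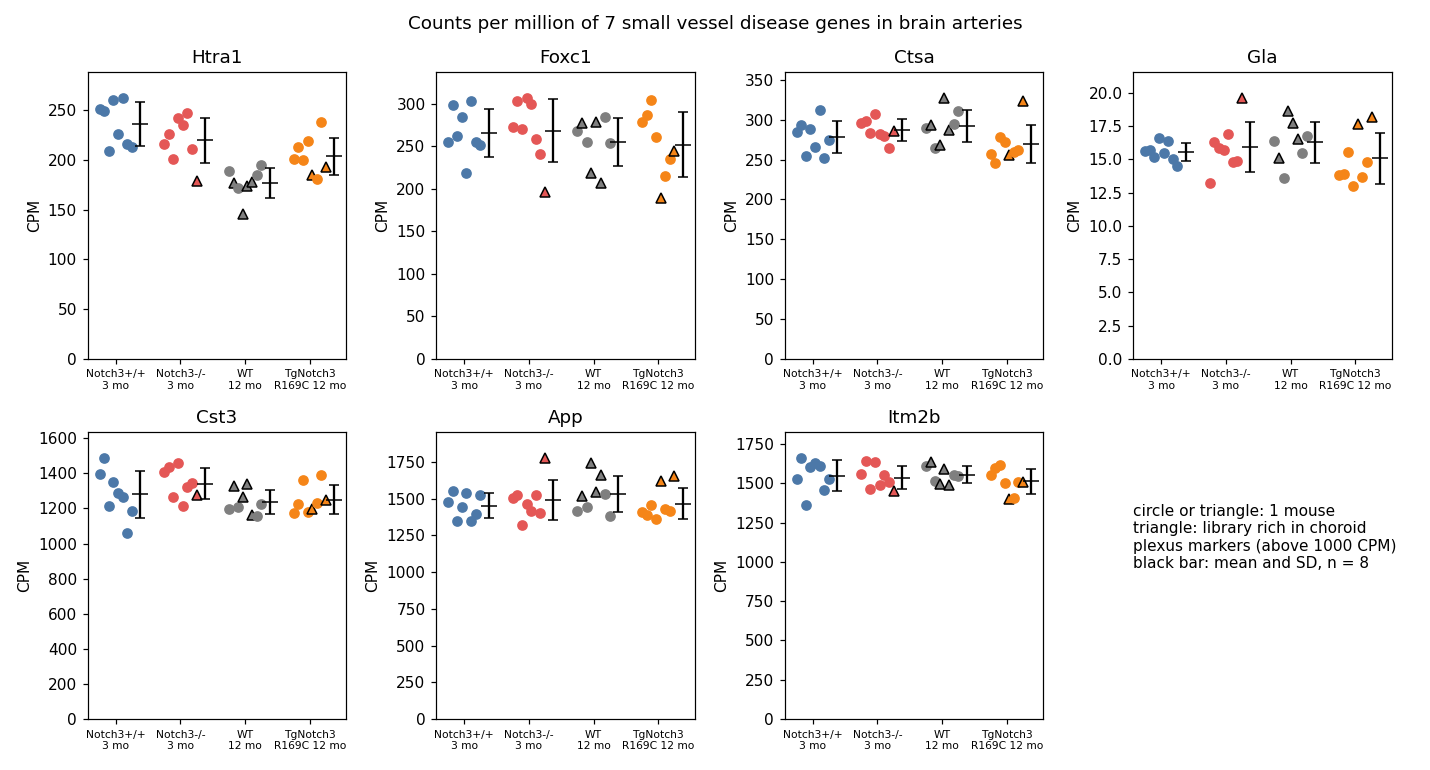
Level in CPM (y axis, from 0) of the 7 members with counts in each of the 32 libraries, by group; triangles are the 7 libraries rich in choroid plexus markers, and black bars are the mean and SD of 8 mice. Htra1 was lower in all 8 WT mice (146 to 195 CPM) than in any of the 8 Notch3+/+ mice (209 to 262 CPM), and the groups of the other 6 genes overlapped.

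No member passed the test in either mutant, and 1 did between the control groups. In Notch3-/- against Notch3+/+ mice, 0 of the 7 members tested passed the adjusted p of 0.05, and 0.649% of the 17714 genes tested did. At an unadjusted p below 0.05, the members numbered 0 of 7, and the share of all genes was 7.69%. In TgNotch3R169C against WT mice, 0 of 7 were called, against 0.113% of 17731 genes; at an unadjusted p below 0.05 there were 2 of 7, Htra1 and Ctsa, against 7.27% of all genes. DESeq2's Wald test also called 0 of 7 in each. The median size of the members' log2 fold change was 0.039 in Notch3-/- mice, where that of all genes was 0.065, and 0.062 in TgNotch3R169C mice, where that of all genes was 0.075. The values of all genes cover every level, not only genes as abundant as most members.

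WT mice aged 12 months and Notch3+/+ mice aged 3 months differ in age and in mouse line, which cannot be told apart. Between these controls 1 of 7 members, Htra1, was called, and 7.92% of 17643 genes were; the same 1 of 7 had an unadjusted p below 0.05, as did 24.2% of all genes. The WT libraries serve in this comparison and in that of TgNotch3R169C mice, so both hold the same 8 values. The difference between the mutants' changes, tested as an interaction over all 32 libraries, was called for 0 of 7 members (0 by DESeq2) and for 0.35% of 18555 genes. Again Htra1 and Ctsa, 2 of 7, had an unadjusted p below 0.05, against 8.62% of all genes.

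**Figure D2:**
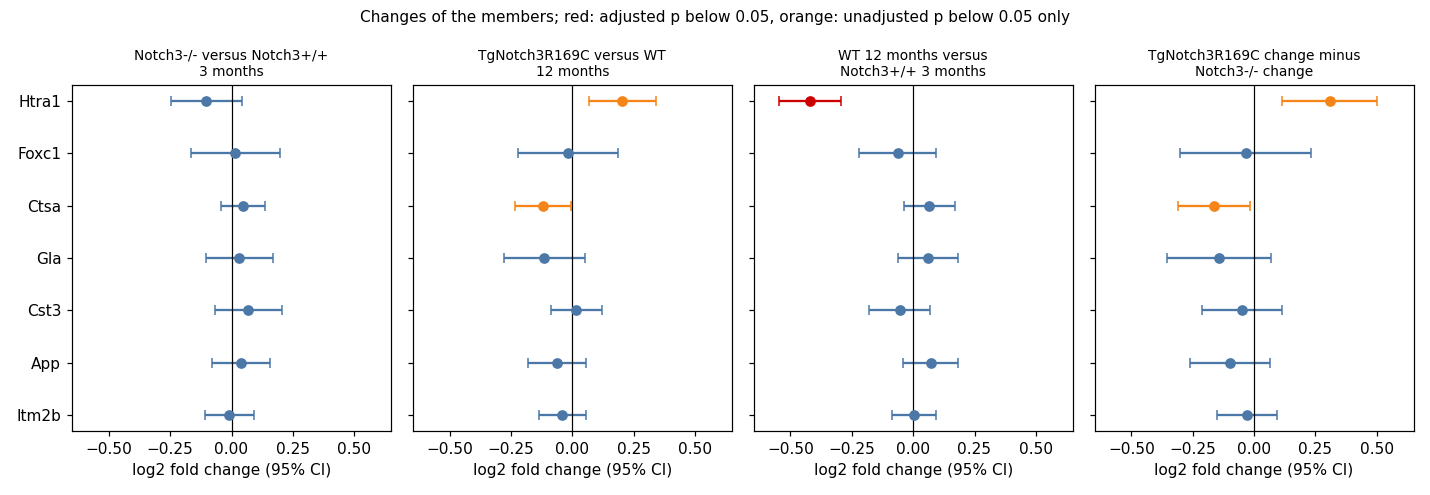
Log2 fold change (x axis) with its 95% CI for 7 members in the 3 comparisons of groups and in the difference between the mutants' changes, from edgeR. The interval of Htra1 in WT against Notch3+/+ mice, −0.55 to −0.29, is the one that passed the adjusted threshold; those of Htra1 and Ctsa in TgNotch3R169C mice and in the difference also leave out 0, and the rest cross it.

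Htra1 (ENSMUSG00000006205, chromosome 7) spread most over the 32 libraries, whereas Foxc1 spread most between mice of a group. The lowest, median and highest levels of Htra1 were 209, 237 and 262 CPM in the Notch3+/+ group, 178, 221 and 247 CPM in the Notch3-/- group, 181, 200 and 238 CPM in TgNotch3R169C mice, and 146, 177 and 195 CPM in WT mice. The means were 236 ± 22.3, 219 ± 22.9, 203 ± 18.9 and 177 ± 14.7 CPM in the same order (SD, n = 8). The young controls stood highest and the 12-month controls lowest, and between them the levels of the mutants overlapped those of their own controls.

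From Notch3+/+ to WT mice Htra1 fell by 0.42 on the log2 scale (SE 0.0607, 95% CI −0.55 to −0.29, adjusted p = 0.000861, edgeR), which is 0.747 times the level of the younger mice. The groups did not overlap; 1.24% of all genes tested were as cleanly separated. The call was kept without any 1 of the 16 mice, with adjusted p from 0.000563 to 0.00297. It was also kept without the 4 WT libraries rich in choroid plexus markers (−0.35, adjusted p = 0.0262). All 8 smooth muscle markers and 3 of 8 fibroblast markers (Col1a1, Col1a2 and Col3a1) were called lower in the same comparison. With the mean smooth muscle marker level as a covariate, the difference in Htra1 was −0.18 (adjusted p = 0.593), and with the fibroblast level it was −0.30 (adjusted p = 0.204). Neither of these fits called more than 5 genes in all.

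In TgNotch3R169C mice Htra1 was 0.20 higher than in WT on the log2 scale (SE 0.0648, 95% CI 0.067 to 0.34). The unadjusted p was 0.00610 and the adjusted p 0.531, so the difference did not pass over all genes. Replicates 5, 6 and 8 of the TgNotch3R169C mice lay within the range of WT mice, and the other 5 lay above it. In Notch3-/- mice the value was −0.10 (SE 0.0694, 95% CI −0.25 to 0.045, adjusted p = 0.838). The gap between the mutants, 0.31 (95% CI 0.12 to 0.50, unadjusted p = 0.00277, adjusted p = 0.212), also missed the threshold. TgNotch3R169C and Notch3-/- mice, next to each other in the order, were not compared directly, since age and line differ.

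**Figure D3:**
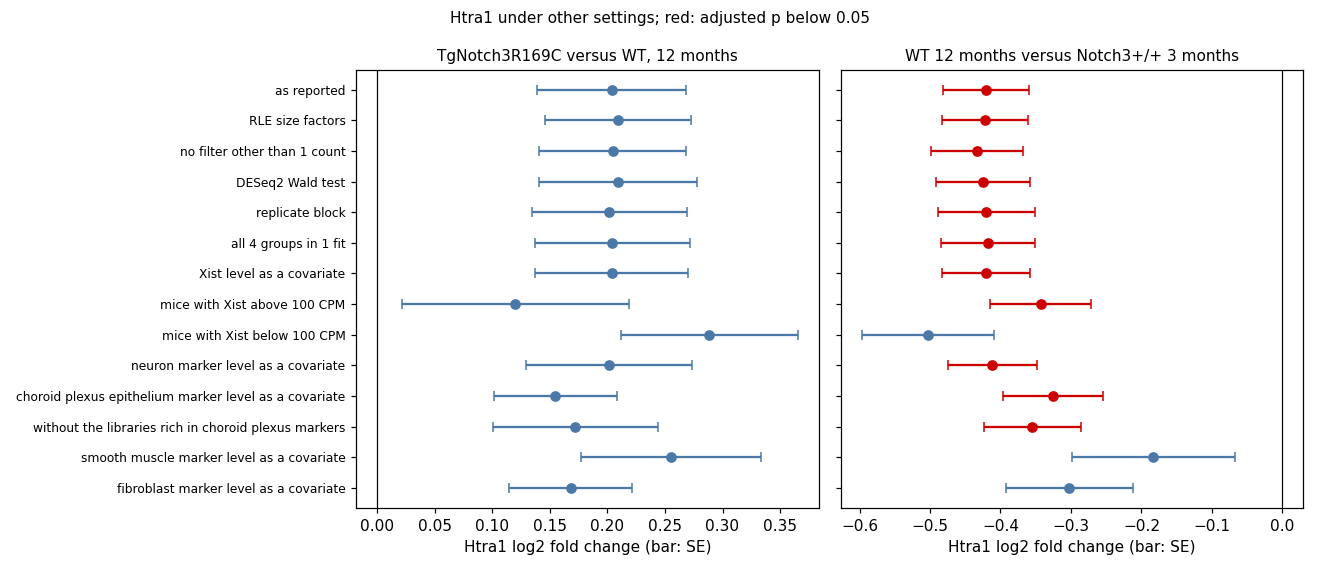
Htra1 log2 fold change (x axis, bars are SE) in TgNotch3R169C against WT mice and in WT against Notch3+/+ mice, as reported and under 13 other settings; red marks an adjusted p below 0.05. The first stayed positive and never passed; the second stayed negative and lost its call with smooth muscle or fibroblast markers in the model and in the mice with low Xist.

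Among 11 genes of the HTRA family and of extracellular proteins linked with HTRA1, 1 rose in TgNotch3R169C mice, where 0.113% of the 17731 genes tested were called. The list was chosen with earlier results of these data known. Ntn4, which encodes a netrin of vascular basement membranes, was at 68.9, 75.5 and 86.5 CPM (lowest, median and highest) in TgNotch3R169C mice and at 55.8, 61.2 and 66.2 CPM in WT mice. Every TgNotch3R169C mouse lay above every WT mouse, a separation seen for 0.141% of the genes tested. The log2 fold change was 0.32 (SE 0.0498, adjusted p = 0.0189, edgeR). Bgn, which encodes the matrix proteoglycan biglycan, stood just outside the threshold (0.35, SE 0.0679, adjusted p = 0.0645) and was called by DESeq2. Ntn4 was also 1 of the 2 genes of the list that fell from Notch3+/+ to WT mice (−0.48, adjusted p = 0.00310), with Ltbp1, which encodes a binding protein of latent TGF-β (−0.48, adjusted p = 0.0295). In Notch3-/- mice 0 of the 11 passed, Ntn4 was at −0.073 (adjusted p = 0.964), and Clu, which encodes the extracellular chaperone clusterin, had the smallest p (0.17, adjusted p = 0.793). The median log2 fold change of the list was 0.024 in Notch3-/- mice, 0.016 in TgNotch3R169C mice and −0.18 between the controls, where the median of all genes was −0.0011, −0.0074 and 0.0026.

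Trex1 (ENSMUSG00000049734, chromosome 9) was listed at 0 counts in all 32 libraries, and no comparison could be made. The zero does not give the level of the gene. In the GENCODE M21 annotation, used here for lengths, all 1147 bases of the Trex1 exons (100%) lie inside exons of Atrip on the same strand. Atrip, which encodes a partner of the DNA damage kinase ATR, had 381 to 950 counts per library and means of 18.0 to 19.2 CPM in the 4 groups. A read from the shared bases fits both genes, and the setting by which such reads were counted is not given in the sources used here.

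Other genes of cytosolic DNA and RNA sensing were measured. Of 12 genes of cytosolic nucleic acid sensing, 11 were tested, and Trex2 had too few counts. Ifih1, which encodes a sensor of double-stranded RNA, was the 1 that rose in Notch3-/- mice: it was at 62.9, 67.3 and 77.3 CPM (lowest, median and highest), and at 52.0, 58.6 and 62.9 CPM in Notch3+/+ mice. The log2 fold change was 0.22 (SE 0.0451, adjusted p = 0.0269, edgeR), and the groups met only at their edges. Of the 17714 genes tested in that comparison, 0.649% were called. In TgNotch3R169C mice 0 of the 11 were called, Ifih1 was at −0.031 (adjusted p = 0.945), and the smallest p belonged to Dnase2a, which encodes a lysosomal DNase (−0.18, adjusted p = 0.679). Between the controls, Adar, which encodes an RNA-editing enzyme, was higher in WT mice (0.22, adjusted p = 0.0272).

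Foxc1 (ENSMUSG00000050295, chromosome 13) lay at 218, 258 and 303 CPM (lowest, median and highest) in the Notch3+/+ group and at 196, 271 and 307 CPM in the Notch3-/- group. It lay at 189, 252 and 304 CPM in TgNotch3R169C mice and at 207, 262 and 284 CPM in WT mice. The 4 ranges covered each other almost wholly. Within TgNotch3R169C mice, the 4 with high Xist lay at 189 to 244 CPM and the 4 with low Xist at 260 to 304 CPM. In each other group these ranges overlapped, and the means in WT mice were 256 and 255 CPM. This split was picked after the values were seen and was not tested. Over 29 alternative settings the log2 fold change in TgNotch3R169C against WT mice ran from −0.22 to 0.16, and 0 were called. The log2 fold change was 0.015 in Notch3-/- mice (95% CI −0.17 to 0.20, adjusted p = 0.994) and −0.019 in TgNotch3R169C mice (95% CI −0.22 to 0.19, adjusted p = 0.974). These intervals, the widest of the 7 members in both mutants, leave room for a change in either direction. As folds they were 0.891 to 1.15 in Notch3-/- mice and 0.857 to 1.14 in TgNotch3R169C mice.

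Of 10 other mesenchymal transcription factors, 9 were tested, and 0 were called in either mutant. The smallest p belonged to Lmx1b in Notch3-/- mice (0.65, SE 0.271, adjusted p = 0.557) and to Foxd2 in TgNotch3R169C mice (−0.11, SE 0.0793, adjusted p = 0.765). Between the controls, Tbx18, a T-box factor of mural cells, fell (−0.42, adjusted p = 0.00744).

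The lysosomal members passed no test. Ctsa (ENSMUSG00000017760, chromosome 2) was at 252, 279 and 313 CPM in Notch3+/+, 264, 285 and 307 CPM in Notch3-/-, 246, 261 and 324 CPM in TgNotch3R169C and 265, 292 and 327 CPM in WT mice (lowest, median and highest). The difference between TgNotch3R169C and WT mice was −0.12 (SE 0.0540, 95% CI −0.23 to −0.0041, unadjusted p = 0.0431, adjusted p = 0.679). With the neuron marker level as a covariate it was −0.061 (unadjusted p = 0.210), and with the smooth muscle level −0.072 (unadjusted p = 0.274, edgeR). Without the libraries rich in choroid plexus markers it was −0.14 (unadjusted p = 0.0184, edgeR). Over 29 alternative settings it was always negative, from −0.16 to −0.061. The unadjusted p was below 0.05 in 13 of them, and 0 passed the adjusted threshold. The 8 neuron markers were at 0.11 to 0.77 in the same comparison, with a median of 0.40, and 0 of them passed. The TgNotch3R169C group held the lowest library of the gene, and its replicate 8, at 324 CPM, lay far above the other 7. In Notch3-/- mice the value was 0.046 (adjusted p = 0.901), and the gap between the mutants was −0.16 (unadjusted p = 0.0322, adjusted p = 0.534). Of the Ctsa exon bases 17.4% lie opposite exons of Neurl2 or Pltp on the other strand; the libraries were stranded.

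Gla (ENSMUSG00000031266, chromosome X) was the scarcest member with counts, at 320 to 883 counts per library. Its lowest, median and highest levels were 14.5, 15.5 and 16.6 CPM in Notch3+/+, 13.2, 15.8 and 19.6 CPM in Notch3-/-, 13.0, 14.3 and 18.2 CPM in TgNotch3R169C and 13.6, 16.5 and 18.6 CPM in WT mice. The log2 fold change was 0.032 in Notch3-/- mice (adjusted p = 0.974) and −0.11 in TgNotch3R169C mice (adjusted p = 0.761). The gene is X-linked, and its ranges overlapped between mice with high and low Xist in all 4 groups. The means with high and low Xist were 15.3 ± 0.801 and 15.8 ± 0.578 CPM in the Notch3+/+ group, 16.5 ± 2.28 and 15.3 ± 1.40 CPM in the Notch3-/- group and 16.6 ± 0.913 and 15.9 ± 2.12 CPM in WT mice (SD, n = 4). In TgNotch3R169C mice they stood farthest apart, at 16.1 CPM (range 13.7 to 18.2 CPM) and 14.1 CPM (range 13.0 to 15.6 CPM). Replicates 5 and 8 of these mice, at 17.7 and 18.2 CPM, were high in Xist and also rich in choroid plexus markers. Replicates 6 and 7, high in Xist alone, were at 13.7 and 14.8 CPM, within the range of the low-Xist mice. The Notch3-/- library at 19.6 CPM, replicate 8, was likewise high in both. The part of that tissue in these values was not tested.

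Of 16 other genes of lysosomal glycoprotein and glycolipid breakdown, 0 were called in any comparison. The smallest p belonged to Tfeb, which encodes the regulator of lysosomal genes, in Notch3-/- mice (0.087, adjusted p = 0.830), and to Neu1, the neuraminidase that cathepsin A protects, in TgNotch3R169C mice (−0.10, SE 0.0375, unadjusted p = 0.0135, adjusted p = 0.611). The median log2 fold change of the 16 genes was 0.019 in Notch3-/- mice, −0.052 in TgNotch3R169C mice and 0.00021 between the controls.

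The amyloid precursors were the most abundant members. Cst3 (ENSMUSG00000027447, chromosome 2), which encodes cystatin C, an inhibitor of cysteine proteases, had means of 1280 ± 133 CPM in Notch3+/+, 1341 ± 88.3 CPM in Notch3-/-, 1250 ± 81.3 CPM in TgNotch3R169C and 1236 ± 69.4 CPM in WT mice (SD, n = 8). Itm2b (ENSMUSG00000022108, chromosome 14) had medians of 1568, 1529, 1511 and 1550 CPM in the same order, and all 32 libraries lay between 1363 and 1660 CPM. App (ENSMUSG00000022892, chromosome 16) had 1452 ± 84.6, 1490 ± 134.5, 1466 ± 108.3 and 1529 ± 123.2 CPM. For all 3 genes the groups compared overlapped, and no difference between them passed the test.

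The fits set narrow limits on these genes. In Notch3-/- mice the 95% CI of the fold was 0.955 to 1.15 for Cst3, 0.945 to 1.12 for App and 0.928 to 1.06 for Itm2b (adjusted p = 0.901, 0.957 and 0.994). In TgNotch3R169C mice it was 0.940 to 1.09 for Cst3, 0.883 to 1.04 for App and 0.910 to 1.04 for Itm2b (adjusted p = 0.950, 0.808 and 0.852). An increase of App or Itm2b beyond these upper bounds lies outside the intervals.

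Genes that make, cut or bind these proteins also stayed below the threshold in both mutants. Of 17 genes of the APP family and its processing, 0 were called in Notch3-/- mice, where Aplp2, an APP homolog, had the smallest p (−0.069, adjusted p = 0.830), and 0 in TgNotch3R169C mice, where Ece1, which encodes an endothelin-converting enzyme that can degrade amyloid β, was at 0.19 (unadjusted p = 0.0202, adjusted p = 0.637). Of 11 cystatins and cysteine cathepsins, 0 were called in either mutant, with Ctsz (cathepsin Z) at 0.073 in Notch3-/- mice (adjusted p = 0.740) and Cst7 (cystatin F) at −0.50 in TgNotch3R169C mice (adjusted p = 0.704). Of 5 genes of the BRI family and its processing, 0 were called in either mutant, with Itm2a at −0.12 in Notch3-/- mice (adjusted p = 0.836) and Itm2c at −0.096 in TgNotch3R169C mice (adjusted p = 0.733).

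Between the controls, 7 genes of these 3 lists fell or rose besides their members: Ctsk (−0.53, adjusted p = 0.0134), Ctsh (−0.18, adjusted p = 0.0446), Bace1, the β-secretase of APP (−0.15, adjusted p = 0.0215), Itm2a (−0.38, adjusted p = 0.00180) and Sppl2a, a protease of BRI proteins (−0.16, adjusted p = 0.0397) were lower in WT mice. Cst7 (0.98, adjusted p = 0.0432) and Ctsz (0.15, adjusted p = 0.0450) were higher. Over all 8 lists, 12 of 83 genes tested were called between the controls, 4 higher and 8 lower, 1 of 82 in Notch3-/- mice, 1 of 83 in TgNotch3R169C mice and 0 of 84 in the difference between the mutants; the shares of all genes were 7.92%, 0.649%, 0.113% and 0.35%. At an unadjusted p below 0.05 the numbers were 32, 4, 9 and 10, and the shares of all genes 24.2%, 7.69%, 7.27% and 8.62%. DESeq2 called 15, 2, 2 and 1, adding Ctsb, Adam17 and Apoe between the controls, Ttr in Notch3-/- mice and Bgn in TgNotch3R169C mice and in the difference.

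In the last list, of 3 other vascular amyloid genes, Ttr followed the choroid plexus markers. Ttr, which encodes transthyretin and is a product of that epithelium, was at 7895 to 23151 CPM in the 7 libraries rich in choroid plexus markers and at 14.0 to 329 CPM in the other 25. Its log2 fold change was 5.23 in Notch3-/- mice (SE 1.79, adjusted p = 0.370), where 1 library was of the rich kind, and 6.54 between the controls (adjusted p = 0.00959), where 4 were. Gsn and Prnp passed in no comparison, and Prnp, the prion protein gene, was at 0.080 in TgNotch3R169C mice (adjusted p = 0.724).

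App and Gla also tended to be higher in those 7 libraries. App was at 1520 to 1774 CPM there and at 1317 to 1552 CPM in the other 25. It was highest in the rich libraries of the Notch3-/- group (1774 CPM, against 1317 to 1523 CPM) and of the TgNotch3R169C group (1621 and 1650 CPM, against 1359 to 1454 CPM). In the WT group the ranges overlapped, at 1520 to 1742 CPM in the 4 rich libraries and 1378 to 1528 CPM in the other 4. Gla was at 15.1 to 19.6 CPM in the 7 and at 13.0 to 16.9 CPM in the others. Its ranges in the WT group also overlapped, at 15.1 to 18.6 CPM in the rich libraries and 13.6 to 16.7 CPM in the others. Htra1 stood the other way, at 146 to 193 CPM in the 7 and at 172 to 262 CPM in the others, and so did Foxc1, at 189 to 278 CPM and 215 to 307 CPM. The 2 sets of libraries were formed from the marker levels and hold unequal shares of the groups, and their difference was not tested. Without the 7 libraries, 0 of 7 members were called in either mutant, 1 of 7 between the controls and 0 of 7 in the difference between the mutants. Of all genes, the same fits called 98 in Notch3-/- mice, 2 in TgNotch3R169C mice, 402 between the controls and 39 in the difference.

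**Figure D4:**
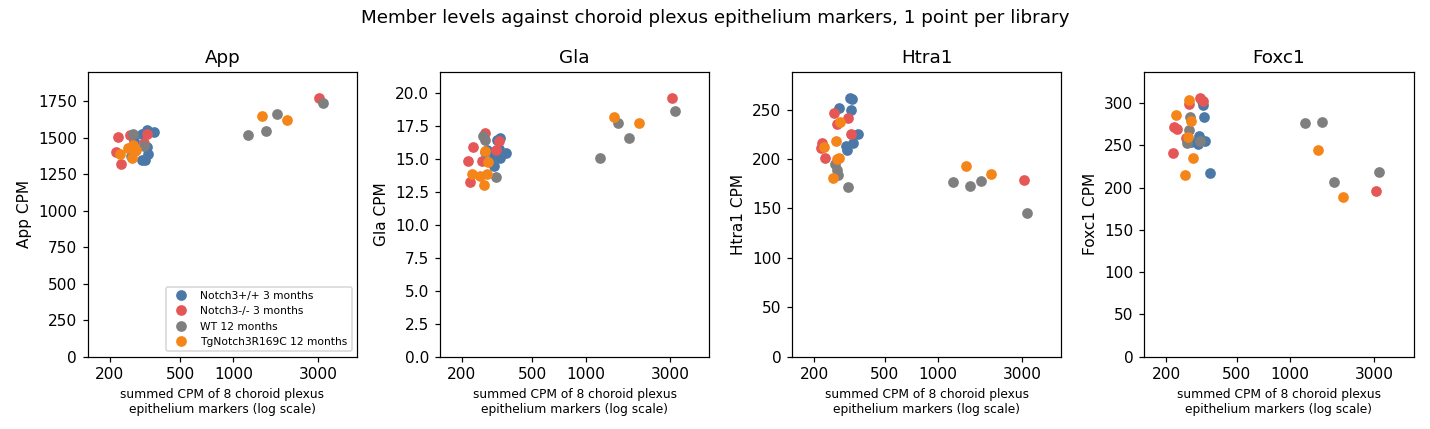
Level in CPM (y axes, from 0) of App, Gla, Htra1 and Foxc1 against the summed CPM of 8 choroid plexus epithelium markers (x axis, log scale), 1 point per library, colored by group. The 7 libraries above 1000 CPM on the x axis hold App values of 1520 to 1774 CPM, where the other 25 reach 1552 CPM, and Htra1 values of at most 193 CPM.

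Some members moved with marker lists of other cell types. Deviations from the group means were compared for 7 members and 11 marker lists over the 32 libraries, by permutation within groups and with Benjamini-Hochberg adjustment over these 77 relations. Of the 77, 15 passed by Pearson's r and 11 by Spearman's rho; 4 of the 15 were with the choroid plexus list, whose libraries form 2 clusters, so that the ranges above stand in place of an r. Of these, the relations of Htra1 and Foxc1 with the choroid plexus list did not pass by Spearman's rho (adjusted p = 0.150 and 0.216, permutation tests). Cst3 passed with none of the 11 lists by Pearson's r. By Spearman's rho it fell as the neuron markers rose (rho = −0.54, adjusted p = 0.0165, against r = −0.45, adjusted p = 0.0950, permutation tests). Within the 4 groups r was −0.89 to −0.20. Without the 2 libraries farthest from the median of each list, 5 of the 77 passed. Itm2b fell as the neuron markers rose (r = −0.73, adjusted p = 0.00128; rho = −0.70, adjusted p = 0.00154; permutation tests), and r was −0.60 (adjusted p = 0.0252) without 2 libraries and −0.87 to −0.63 within the 4 groups. Ctsa did likewise (r = −0.56, adjusted p = 0.0112; rho = −0.57, adjusted p = 0.0132; permutation tests), with −0.73 to −0.43 within groups; without 2 libraries r was −0.51 and no longer passed (adjusted p = 0.0502).

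Foxc1 rose with the microglia and macrophage markers (r = 0.72, adjusted p = 0.000770; rho = 0.63, adjusted p = 0.00770; permutation tests), with 0.67 (adjusted p = 0.00539) without 2 libraries and 0.49 to 0.87 within groups. Itm2b rose with the fibroblast markers (r = 0.61, adjusted p = 0.00719; rho = 0.58, adjusted p = 0.0136; permutation tests), and so did Htra1 by Pearson's r alone (r = 0.59, adjusted p = 0.0102; rho = 0.36, adjusted p = 0.192; permutation tests). Without 2 libraries these were 0.55 and 0.51, and neither passed (adjusted p = 0.0502 and 0.0798, permutation tests). Among the other 6 relations that passed by Pearson's r were those of Foxc1, Ctsa and Itm2b with pericyte markers. The rest were of Foxc1 with endothelial markers and of Htra1 and App with microglia and macrophage markers. Pearson's r was positive in 5 of the 6 and −0.49 for App. By Spearman's rho those of Htra1 and App did not pass (adjusted p = 0.0688 and 0.0701, permutation tests). Without 2 libraries, those of Foxc1 and Itm2b with pericyte markers still passed. The lists share libraries and depth, and the part of tissue mixture in any member's level was not tested.

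The genes whose deviations were most like each member's were named by Pearson's r over the 32 libraries and 18554 other genes, as a description with no test. For Htra1 they were Scarf2 (0.86), Cpxm1 (0.81) and Ctsk (0.77). Foxc1 was followed by another forkhead gene, Foxd1 (0.88), then Omd and Tmem64 (0.87 each). Ctsa was followed by Idh2 (0.85), Ctsb (0.84) and Slc13a4 (0.83). For Gla they included 1110032A03Rik (0.87) and Fam161a (0.86). App was followed by Slc39a9, Dlst (0.87 each) and Cldn1 (0.86), Cst3 by Cd81 (0.77), Nkain4 (0.76) and Tmem101 (0.75), and Itm2b by Cmtm6 (0.81), Laptm4a and Kdelr1 (0.80 each). The libraries rich in choroid plexus markers enter all of these values.

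Among the members themselves, the deviations of Itm2b and Foxc1 ran together most (r = 0.63, rho = 0.70 over 32 libraries), followed by Itm2b and Cst3 (r = 0.59, rho = 0.58), Itm2b and Htra1 (r = 0.58, rho = 0.54) and Htra1 and Foxc1 (r = 0.57, rho = 0.50). App ran against Foxc1 (r = −0.54, rho = −0.36) and Htra1 (r = −0.44, rho = −0.30). These values describe the libraries and were not tested.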

How the data were processed

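Brain arteries of 32 mice, 8 per group, were analysed with 1 library per mouse; groups came from the labels. The deposited values are raw counts of reads on each Ensembl gene, not normalized, from stranded poly(A) libraries. The submitters' processing notes name bcl2fastq 2.20.0.422, cutadapt 1.10, Bowtie2 2.2.8, STAR 2.5.3a, HTSeq 0.6.1p1 and the build mm39; the annotation release is not given in the sources used here. Of 55357 genes, 16744 had no counts. Exon lengths and overlaps came from GENCODE M21 (GRCm38), so no coordinates are given.

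Counts were tested in R 4.3.3 with edgeR 4.0.16 (filterByExpr, TMM, glmQLFit, glmQLFTest) between 2 groups, and for the difference between the mutants over 4 groups, with Benjamini-Hochberg adjustment over all genes tested and a threshold of 0.05. The paper used DESeq2, which is an alternative here (1.42.0). Levels are CPM on 1 TMM scale over all libraries; log2 CPM has 0.5 added to each count. Relations used 100000 permutations within groups. Intervals are 95% CIs of the log2 fold change between groups, with mice as the replicates, and do not give the range of single mice. The SE of an edgeR fit was derived from its log2 fold change and F statistic, and the interval from that SE. Named genes are the members, Notch3, the called genes of each list (at most 4, or the one with the smallest p) in the mutants, and 3 nearest genes per member (1 is not reported here); genes named between the controls, Bgn, Atrip, Xist and the collagens were chosen after their values were seen. The members and lists were chosen with earlier results of these data known. The fits were tested on simulated data. Replicates were not duplicates (mean chi-square per gene 10.9 or more). The labels do not say whether numbers shared between groups pair the mice. In every group replicates 1 to 4 were low in Xist and 5 to 8 high, so the numbers were ordered alike. Of 8 pairs, 3 or 4 had a correlation over 0.1 in each comparison. The mouse of the same number was the best match for 3 of 8 in Notch3-/- mice, 1 in TgNotch3R169C mice and 2 between the controls. These values do not settle whether the mice were paired, and the main fits held no pairing.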

Additional observations from a re-analysis of the deposited data

Results flagged for a closer look

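Of 28 sets of 8 values (7 members in 4 groups), 3 held a library far from the others by Dixon's test at the 95% level; about 1 in 20 sets would do so by chance. Htra1 was at 146 CPM in replicate 4 of the WT mice, where the next lowest mouse was at 172 CPM. App was at 1774 CPM in replicate 8 of the Notch3-/- mice, where the next highest was at 1523 CPM. Ctsa was at 324 CPM in replicate 8 of the TgNotch3R169C mice, where the next highest was at 278 CPM. Each of the 3 libraries is 1 of the 7 rich in choroid plexus markers; the part of that tissue in these values was not tested.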

How the results depend on the processing

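The count of members called in each mutant and in the difference between them was 0 under every alternative run. Between the controls it was 1, and 0 with the smooth muscle markers as a covariate, with the fibroblast markers as a covariate and in the 4 against 4 mice with low Xist, where Htra1 was at −0.50 (adjusted p = 0.147); these last 2 and the fits without choroid-rich libraries were chosen after seeing the data. Leaving out each mouse left it at 1. The replicate number as a block is a pairing that the labels do not give. With it, Htra1 was at −0.42 between the controls (adjusted p = 0.0138, edgeR). In Notch3-/- mice Htra1 was at −0.10 (SE 0.0405, unadjusted p = 0.0278, adjusted p = 0.560, edgeR). The count of all genes was 715 against 1398 between the controls and 6 against 20 in TgNotch3R169C mice. Every count of members was as without the block. Over all settings the count of all genes ran from 12 to 280 in Notch3-/- mice, 1 to 74 in TgNotch3R169C mice, 0 to 2365 between the controls and 3 to 153 for the difference between the mutants. The 15 relations with marker lists became 5 without the 2 farthest libraries, and 0 within each of the Notch3-/-, Notch3+/+, TgNotch3R169C and WT groups of 8 mice. The level of Trex1 is not given by its listed zero.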
